A study of Homo sapiens with 23 samples.

Results

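The peak lists of H3K36me3 and H3K27me3 were compared with each other in NCI-H23, an established human non-small cell lung cancer line. Both marks had 2 replicate libraries, so 4 of the 23 samples of the series were used as members, chosen by the target named in the sample titles. The series holds 22 lists of ChIP-seq peaks, for 10 histone modifications and the bromodomain protein BRD2, and 1 input library that was not analysed here. All cells were of the same line, with no genotype given. The labels' treatment protocol names the BET inhibitor JQ1 and its solvent DMSO but does not say which library received which, and it does not say whether replicates were separate cultures. The H3K36me3 antibody was Abcam ab9050 and the H3K27me3 antibody Diagenode C15410195, both rabbit polyclonals.

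H3K36me3 is laid down by SETD2, which travels with elongating RNA polymerase II, and marks the bodies of transcribed genes. H3K27me3 is laid down by EZH2 within Polycomb repressive complex 2 and marks silenced genes, often over broad domains. Both residues lie on the same histone tail, and methylation of lysine 36 is known to hinder methylation of lysine 27 on that tail. The comparison addressed how completely the marks kept apart in these cells, and over what distance.

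The 2 marks differed in the shape of their peaks. H3K36me3 replicate 1 had 148323 peaks covering 207.6 Mb and replicate 2 had 146180 peaks covering 200.8 Mb. H3K27me3 replicate 1 had 213028 peaks covering 127.1 Mb and replicate 2 had 277462 peaks covering 150.0 Mb. H3K27me3 therefore had more peaks and covered fewer bases in each of its libraries. The median H3K36me3 peak was 610 bp and 604 bp wide in replicates 1 and 2, and the widest peaks reached 110.8 kb and 108.1 kb. The median H3K27me3 peak was 434 bp and 400 bp wide, and the widest reached 14.6 kb and 14.7 kb. Peaks of at least 10 kb held 19.8% and 19.4% of the H3K36me3 bases, against 0.063% and 0.047% of the H3K27me3 bases.

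The replicates of H3K36me3 resembled each other more than those of H3K27me3 did. The Jaccard index, the bases covered by both lists divided by those covered by either, was 0.715 for H3K36me3 and 0.366 for H3K27me3. Of all H3K36me3 peaks, 76.4% of replicate 1 and 80.7% of replicate 2 met a peak of the other replicate, and of all H3K27me3 peaks 67.6% and 53.9% did. By this share the marks differed less among strong peaks (−log10 q from 5 upwards). Of the strong H3K36me3 peaks, 94.8% of replicate 1 and 96.5% of replicate 2 met a peak of the other replicate, and of the strong H3K27me3 peaks 93.7% and 90.03% did. Strong peaks made up 47.9% and 46.8% of the H3K36me3 lists but 18.1% and 14.5% of the H3K27me3 lists. Read depth is unknown, so list lengths were not corrected for it.

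The marks shared almost no bases. H3K36me3 replicate 1 and H3K27me3 replicate 1 both covered 0.162 Mb, where 9.71 Mb would have been shared on average over every circular displacement of one list along each chromosome. That expectation is exact, needs no draws and counts only callable bases, meaning the 2811.7 Mb of 100 kb bins that held a peak in any of the 22 lists. The observed overlap over the expected one was 0.0167 for this pair and 0.0290 for H3K36me3 replicate 1 with H3K27me3 replicate 2. It was 0.0172 and 0.0300 for H3K36me3 replicate 2 with H3K27me3 replicates 1 and 2. All 4 values lay far under 1, and they fell into a lower and a higher pair by the H3K27me3 library. The mean was 0.0232, with an SD of 0.00889 between the 2 H3K27me3 libraries and of 0.00052 between the 2 H3K36me3 libraries. An exact two-sided test of 2 libraries against 2 cannot reach 0.05, so comparisons between libraries are given without a test, and no p was computed across peaks, bins, domains or chromosomes.

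Counting peaks gave the same picture. On average 0.300% of H3K36me3 peaks met an H3K27me3 peak by at least 1 bp, against 11.2% expected (SD of the observed share 0.110 between H3K27me3 libraries, n = 2). Conversely 0.249% of H3K27me3 peaks met an H3K36me3 peak, against 9.34% expected (SD 0.0833, n = 2). The bases called in both replicates of a mark, the most reproducible part of the lists, overlapped in 64.0 kb spread over 181 regions, against 4.73 Mb expected, a ratio of 0.0135.

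Among the few peaks that did meet, the marks were not alike. H3K36me3 peaks that met H3K27me3 were wider and stronger than those that did not. In replicate 1 against H3K27me3 replicate 2, the 554 such peaks had a median fold enrichment of 7.83 and a median width of 2877.5 bp, against 3.65 and 609 bp in the rest. This was the largest contrast of the 4 pairs of lists. The medians ran from 4.96 to 7.83 and from 1444.5 bp to 2877.5 bp, and were lower against H3K27me3 replicate 1. A wider peak also meets a displaced list more often, and this contrast was not corrected for that. H3K27me3 peaks that met H3K36me3 were narrower and weaker. The 854 such peaks of H3K27me3 replicate 2 met by H3K36me3 replicate 1 had a median fold enrichment of 3.02 and a median width of 344.5 bp, against 3.30 and 400 bp. The median H3K27me3 peak of this kind lay wholly inside an H3K36me3 peak in all 4 pairs of lists. The fold enrichments are the authors' values and describe peaks within a list only.

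The share of overlapping peaks did not fall steadily with peak strength. Among H3K36me3 peaks with a −log10 q from 5 to 10, between 0.122% and 0.219% met H3K27me3 over the 4 pairs of lists, and among those from 20 upwards between 1.24% and 2.66% did. The expected shares were also higher in the stronger class, whose peaks are wider, at 23.2% to 27.1% against 9.86% to 12.1%. The ratio of observed to expected was still 0.0532 to 0.0981 in the strongest class against 0.0124 to 0.0181. Without chromosome 19 the range in the strongest class was 0.0346 to 0.0575, and on chromosome 19 it was 0.358 to 0.695. H3K27me3 peaks had their lowest share at a −log10 q from 5 to 10, between 0.0801% and 0.132%. Among the strongest H3K27me3 peaks the shares rest on 5 to 7 peaks of 565 and 375.

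The depletion reached well beyond the width of the peaks. When one list was displaced by 2 kb in either direction the mean ratio was 0.0185, its lowest value, and at 10 kb it was 0.0538. It rose to 0.284 at 50 kb, 0.446 at 100 kb and 0.641 at 200 kb. At 500 kb it was 0.892, and at 1 Mb it was 1.04, with all 4 pairs between 1.03 and 1.06. The highest mean was 1.10 at 2 Mb. The small rise from 2 kb back to 0 kb, to 0.0232, was present in all 4 pairs of lists.

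**Figure D1:**
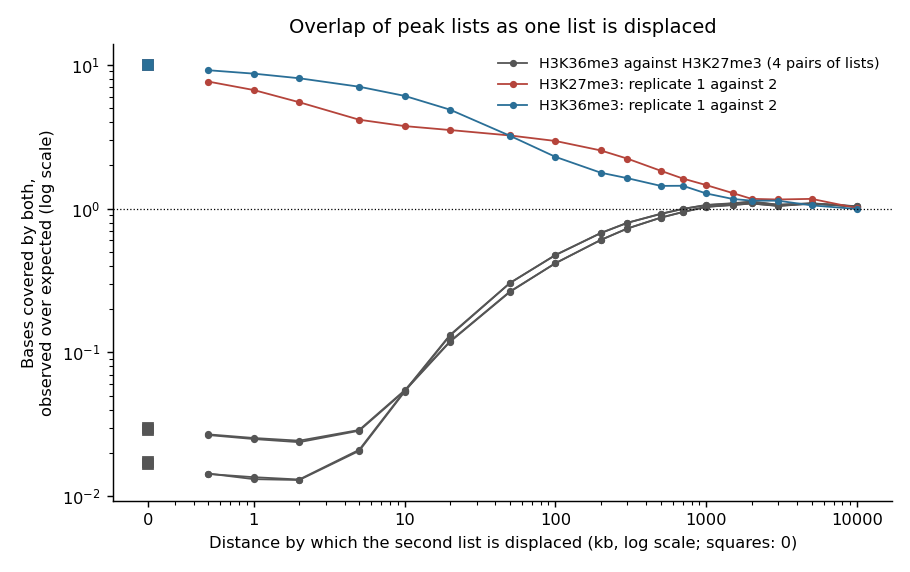
Bases covered by both lists, observed over expected, against the distance in kb by which one list was displaced (log axes, squares at 0 kb), for the 4 pairs of an H3K36me3 and an H3K27me3 list and for the replicates of each mark. The 4 lines between marks lie between 0.0167 and 0.0300 at 0 kb and cross 1 between 700 kb and 1 Mb, while the replicate lines start at 9.90 (H3K36me3) and 10.0 (H3K27me3), where their squares coincide.

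The same displacement applied to the replicates of one mark showed how far each mark extended. The ratio between the H3K36me3 replicates fell from 9.90 at 0 kb to 6.08 at 10 kb, 2.29 at 100 kb and 1.27 at 1 Mb. Between the H3K27me3 replicates it fell faster at first, from 10.0 to 3.75 at 10 kb, and then more slowly, to 2.95 at 100 kb and 1.46 at 1 Mb. The H3K36me3 value was thus the higher of the 2 at 10 kb and the H3K27me3 value the higher at 100 kb and 1 Mb.

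Of the 55 pairs that the 11 targets form, this pair had the lowest ratio. The next was H3K27ac with H3K27me3 at 0.0562 (0.0361 to 0.0791 over 4 pairs of lists), whose range does not reach the 0.0167 to 0.0300 of H3K36me3 with H3K27me3. Both modifications of that second pair sit on the same lysine. H3K4me3 with H3K9me3 followed at 0.121. The order of the first 2 pairs was the same among strong peaks. Among the 10000 strongest peaks of each list, H3K27ac with H3K27me3 was lower, at 0.00173 against 0.0128. That 0.0128 rests on only 3 or 5 overlapping peaks and 5752 bp to 8074 bp per pair of lists. By contrast H3K36me3 with H3K9me3, the mark of constitutive heterochromatin, had a ratio of 0.845, and H3K27me3 with H3K9me3 had 4.63.

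The size of the bin decided whether the marks appeared to exclude each other. In bins of 10 kb, 0.400% held a base of both marks against 5.36% expected from the share of bins holding each, a ratio of 0.0743. In bins of 100 kb the share was 15.8% against 23.8%, a ratio of 0.663. In bins of 1 Mb it was 77.7% against 77.4%, a ratio of 1.00, and nearly every such bin held a base of H3K27me3, 2583 and 2615 of 2649 bins in replicates 1 and 2. Requiring each mark to cover at least 10% of the bin left a depletion at every size, with ratios of 0.0271 at 10 kb, 0.148 at 100 kb and 0.408 at 1 Mb. The rank correlation of cover over bins was −0.278, −0.411 and −0.143 at the 3 sizes, given as a description over 281170, 28117 and 2649 bins of the same libraries.

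How the marked bases of a bin divided between the marks was clearer still. A bin was counted as divided when neither mark held 90% of its marked bases. Divided bins made up 0.610% of marked 10 kb bins, 10.3% of marked 100 kb bins and 50.7% of marked 1 Mb bins. In 10 kb bins, 36.5% of the marked bins belonged to H3K36me3 and 62.9% to H3K27me3 by that measure. At 1 Mb the shares were 21.5% and 27.8%. Most 1 Mb bins thus held both marks, while marked 10 kb bins nearly always held 1 of them, and 52.4% of all 10 kb bins held neither.

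**Figure D2:**
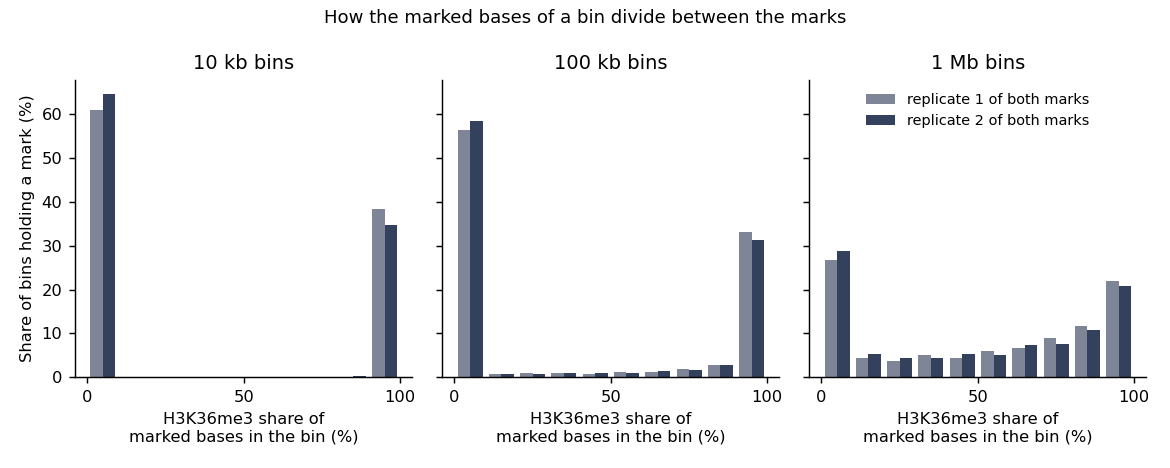
Share of marked bins (%) by the H3K36me3 share of their marked bases (%, in steps of 10), in bins of 10 kb, 100 kb and 1 Mb, with bars for replicate 1 of both marks and for replicate 2 of both marks. Nearly all 10 kb bins stand at the ends of the axis, whereas 50.7% of 1 Mb bins on average over the pairs of lists fall between 10% and 90%.

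Peaks were then joined into domains. Bases called in both replicates of a mark were joined across gaps of at most 3 kb, and stretches of at least 10 kb were kept. H3K36me3 formed 6821 domains totalling 187.6 Mb, with a median length of 20.8 kb, and H3K27me3 formed 3278 domains totalling 56.5 Mb, with a median of 14.3 kb. Domains of at least 50 kb numbered 754 for H3K36me3 and 53 for H3K27me3. Called bases filled 74.4% of the H3K36me3 domains and 44.1% of the H3K27me3 domains. Of the bases called for H3K27me3 alone, 65.1% lay more than 5 kb outside any H3K27me3 domain. For H3K36me3 and its own domains the share was 17.1%. Results on domains therefore describe a minority of the H3K27me3 bases and most of the H3K36me3 bases. H3K27me3 called in both replicates lay in 71 of the H3K36me3 domains (1.04%), and H3K36me3 called in both replicates lay in 2 of the H3K27me3 domains.

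The longest H3K36me3 domain was chr5:14271065-14509289 in the files' build, hg19, 238.2 kb long. The next were chr6:151188358-151425424 with 237.1 kb and chr2:61406610-61621702 with 215.1 kb, followed by chr8:48683957-48892369 with 208.4 kb and chr12:120107437-120314060 with 206.6 kb. H3K36me3 covered between 82.7% and 98.3% of each in both replicates. In 4 of these 5 domains there was no H3K27me3 peak in either library, and that on chromosome 6 had 1 peak in replicate 2, over 0.175% of its length. No annotation of this build was at hand, so the regions carry no gene names here.

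The longest H3K27me3 domain was chr6:39953494-40057512, 104.0 kb long. It was followed by chr1:112600831-112697283 with 96.5 kb, chr20:37911323-37997083 with 85.8 kb, chr17:31617981-31702938 with 85.0 kb and chr8:135362186-135446547 with 84.4 kb. H3K27me3 covered between 54.6% and 76.4% of each, in 51 to 71 separate peaks per library. None of these 5 domains had an H3K36me3 peak in either library. H3K27ac was found in 1 of them, in 1 library, on chromosome 17, whereas all 5 of the longest H3K36me3 domains had it in both libraries. H3K9me3 peaks lay in all 10 of these long domains in both libraries.

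The edges of the domains rarely lay close together. From the 6556 edges of H3K27me3 domains, the nearest H3K36me3 domain was a median of 408.3 kb away, against 273.4 kb expected over all circular displacements. Only 0.320% of these edges had an H3K36me3 domain within 10 kb, against 11.3% expected, and 9.14% had one within 100 kb, against 31.1%. The far side of the distribution was not longer than expected: the upper quartile was 736.8 kb against 793.9 kb. H3K27me3 domains thus seldom adjoined an H3K36me3 domain, and not more of them than expected lay very far from one.

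From the 13642 edges of H3K36me3 domains the median distance to an H3K27me3 domain was 953.7 kb against 966.4 kb expected. Here too the short distances were missing, with 0.154% of edges within 10 kb against 4.19% expected and 4.46% within 100 kb against 13.5%. The comparison of medians changed direction when the H3K27me3 domains of a single library, 7864 or 5639 in number, took the place of the shared ones: the median was 571.0 kb against 448.5 kb expected (without replicate 1) and 619.6 kb against 566.8 kb (without replicate 2). The shortage within 10 kb of H3K27me3 edges was present with each other gap, minimum length and left-out library tried.

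Around the edges of long domains the other mark stayed low for some distance. In the 2 kb just outside the 1248 H3K36me3 domains of at least 40 kb, H3K27me3 cover was 0.00336 and 0.00536 of its genome-wide cover in replicates 1 and 2. From 14 kb to 16 kb outside it was 0.329 and 0.301, and from 48 kb to 50 kb it was 0.373 and 0.324. Most of the rise seen within 50 kb therefore took place over about 15 kb, and cover then changed little up to 50 kb, well under 1. Recovery went on beyond that distance: for displaced lists the mean ratio rose from 0.284 at 50 kb to 0.892 at 500 kb. Around the 101 H3K27me3 domains of at least 40 kb, H3K36me3 rose more slowly. Its cover was 0 in both replicates in the 4 kb next to the edge and 0.122 and 0.0907 of its genome-wide cover at 46 kb to 48 kb. The last step, from 48 kb to 50 kb, was the highest, at 0.191 and 0.235.

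**Figure D3:**
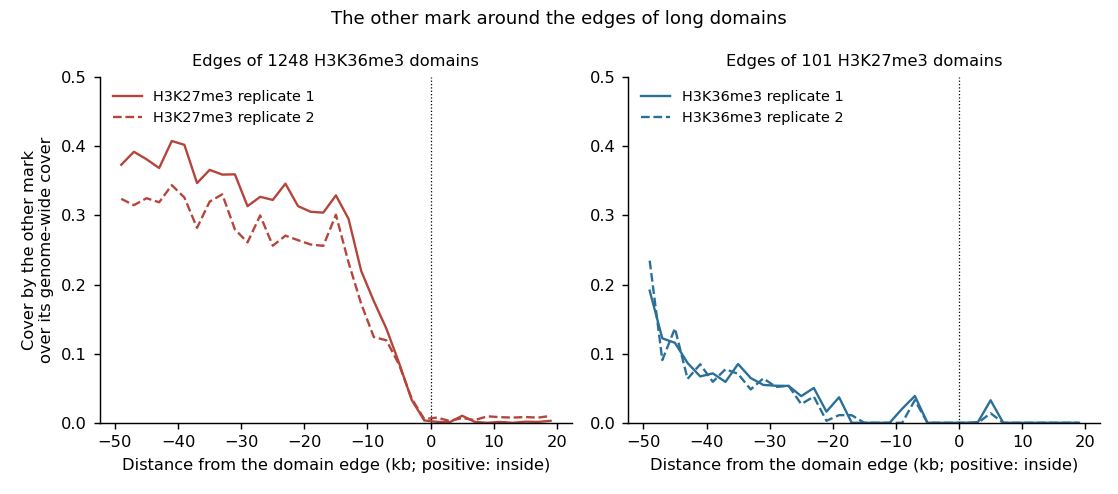
Cover by the other mark over its genome-wide cover, in steps of 2 kb, against the distance from the edge of domains of at least 40 kb (kb, negative outside, positive inside), with 1 line per replicate. H3K27me3 outside 1248 H3K36me3 domains rises within about 15 kb and then changes little over the distance shown, under 0.5. H3K36me3 outside 101 H3K27me3 domains is near 0 close to the edge and reaches 0.191 and 0.235 only in the last step.

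Along the chromosomes, domains of one mark followed each other in runs. Of 10076 pairs of neighbouring domains, 1344 (13.3%) switched from one mark to the other, against 41.3% expected from the number of domains of each mark on each chromosome. That expectation takes the domains in random order, not by circular displacement. Clustering of a mark with itself also lowers the share, so the difference does not measure separation of the marks alone. H3K36me3 domains stood in 689 runs of 9.90 domains on average, the longest with 110. H3K27me3 domains stood in 678 runs of 4.83 on average, the longest with 51. The gap between neighbours had a median of 52.2 kb between H3K36me3 domains, 35.8 kb between H3K27me3 domains and 253.5 kb where the mark switched. A switch therefore came with a gap several times longer than the gaps within a run.

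The short switches were examined for what lay in between. There were 302 gaps of at most 100 kb between neighbours of different marks, 15.7 Mb in all. Peaks of H3K4me3, the mark of promoters, covered 3.23% and 3.19% of these gaps in its 2 lists, a mean of 2.18 times its genome-wide cover. BRD2 stood at 2.16 times, H4K12ac at 1.83 times, H4K8ac at 1.84 times and H3K9me3 at 1.61 times. H3K27ac was at 0.965 times and H3K4me1 at 1.08 times. Of the marks compared here, H3K27me3 was at 1.95 times and H3K36me3 at 0.412 times. These last 2 values are partly set by the definition. A gap holds no domain of either mark, and domains hold most H3K36me3 bases but a minority of H3K27me3 bases. In gaps of at most 100 kb between H3K36me3 domains, H3K4me3 stood at 5.67 times and H3K27ac at 4.10 times. In such gaps between H3K27me3 domains they stood at 0.192 and 0.0563 times. The gaps were not matched for length. Those between H3K36me3 domains numbered 3874 over 111.1 Mb, and those between H3K27me3 domains 1962 over 59.6 Mb.

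One domain pair overlapped. On chromosome 7 an H3K36me3 domain of 21.9 kb at chr7:6723589-6745452 contained an H3K27me3 domain of 11.8 kb at chr7:6727565-6739355. Within those 11.8 kb H3K36me3 covered 100% in both replicates and H3K27me3 covered 42.0% and 46.3%. H3K9me3 covered 98.0% and 100% of the same stretch, and the other 8 targets had no peak in it in either library. Only 1 pair of neighbouring domains of different marks had at least 50 kb each: H3K27me3 at chr9:115670590-115741145 and H3K36me3 at chr9:115920703-115977590, with 179.6 kb between them. Those 179.6 kb held no domain but were not free of peaks. H3K27me3 covered 17.4% and 18.5% of them and H3K36me3 4.47% and 4.21% in replicates 1 and 2.

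The 181 regions called for both marks in both replicates were short and nearly all carried H3K9me3. Their median length was 291 bp and the longest measured 3220 bp. H3K9me3 peaks covered 98.7% and 98.8% of their bases in its 2 lists, 22.2 and 16.2 times its genome-wide cover. In the bases called for H3K36me3 alone H3K9me3 covered 4.39% and 5.39%, and in those called for H3K27me3 alone 29.6% and 36.8%. So H3K9me3 was near its genome-wide level with H3K36me3, well above it with H3K27me3 and almost complete where both met. BRD2 covered less of the regions, 18.1% and 18.4%, but more in proportion to its small genome-wide cover, 35.1 and 28.2 times. The other 7 targets were also above their genome-wide cover, by a mean of 3.53 times (H3K27ac) to 10.7 times (H4K12ac). These covers are pooled over all bases and come from a minority of the regions. In 143 of the 181 H3K9me3 was present in both lists while neither BRD2 nor any of these 7 targets had a peak in any list. A further 3 regions had peaks in all 22 lists and held 8.91% of the bases. The labels of one H3K9me3 library disagree on its replicate number, and replicate 2 was taken from its title.

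By the other targets present, the regions fell into kinds. In 143 of the 181 there was H3K9me3 in both lists and no peak of the other 8 targets in any list. These had strong H3K36me3 and weak H3K27me3, with median fold enrichments of 20.4 and 20.2 for H3K36me3 and 3.39 and 3.35 for H3K27me3, and 114 of them lay in an H3K36me3 domain. In 32 regions H3K9me3 was joined by some of the others, and these were of 2 sorts. In 13 of them the H3K36me3 fold enrichment was 12.6 to 29.2 over both lists, and in the other 19 it was 1.53 to 6.26. H3K27me3 fold enrichment was 2.53 to 5.89 in the former and 1.89 to 3.77 in the latter. The remaining regions were 3 with peaks in all 22 lists and 3 without H3K9me3 in both lists. In all, 127 of the 181 lay in an H3K36me3 domain and 10 in an H3K27me3 domain.

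The 5 longest regions of both marks came from these different kinds. The longest, chr6:58776233-58779452, and those at chr1:121484111-121485599 and chr7:61968739-61969735 had peaks in all 22 lists, with fold enrichments between 2.84 and 3.55 in the 4 lists compared. They summed to 5.71 kb, 8.91% of the bases of both marks. The other 2 were chr4:1739243-1740566, with fold enrichments of 26.1 and 28.6 for H3K36me3 and 4.02 and 5.89 for H3K27me3, and chr6:28120826-28122011, with 26.2 and 22.4 and with 4.97 and 4.21. Both had H3K9me3 in both lists, and beyond that only the former had a peak of another target, in 1 list of H4K8ac.

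Splitting the callable genome by H3K9me3 separated almost all of the overlap from the rest. H3K9me3 peaks of either list covered 7.28% of callable bases and held 98.1% of the bases covered by both marks, on average over the 4 pairs of lists. Outside H3K9me3 peaks the marks shared 3.72 kb to 5.06 kb where 6.97 Mb was expected on average, a mean ratio of 0.000616 (0.000584 to 0.000671). Inside H3K9me3 peaks the mean ratio was 0.0915 (0.0621 to 0.122), so the marks were depleted of each other there as well. H3K9me3 peaks held 6.09% of H3K36me3 bases and 33.5% of H3K27me3 bases. With either H3K9me3 list used alone the ratio outside its peaks was 0.00114 (list 1) and 0.000778 (list 2). This split was chosen after the overlap had been examined.

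No other target divided the overlap in this way. Outside the peaks of each of the other 8 targets the mean ratio stayed between 0.0216 (H4K5acK8ac) and 0.0256 (H3K4me1), close to the 0.0232 of all bases. Inside their peaks it ranged from 0.0318 for H3K4me1 to 0.239 for H4K5acK8ac, but those peaks held 3.39% to 8.92% of the bases of both marks. That is a mean of 7.76 kb (H3K4me3) to 19.9 kb (H3K4me1). The 3 regions with peaks in all 22 lists, 5.71 kb in all, met peaks of each of these targets. The inside ratios therefore rest in part on such regions. H3K4me1 peaks alone cover 7.13% of callable bases, about as much as H3K9me3 peaks do.

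**Figure D4:**
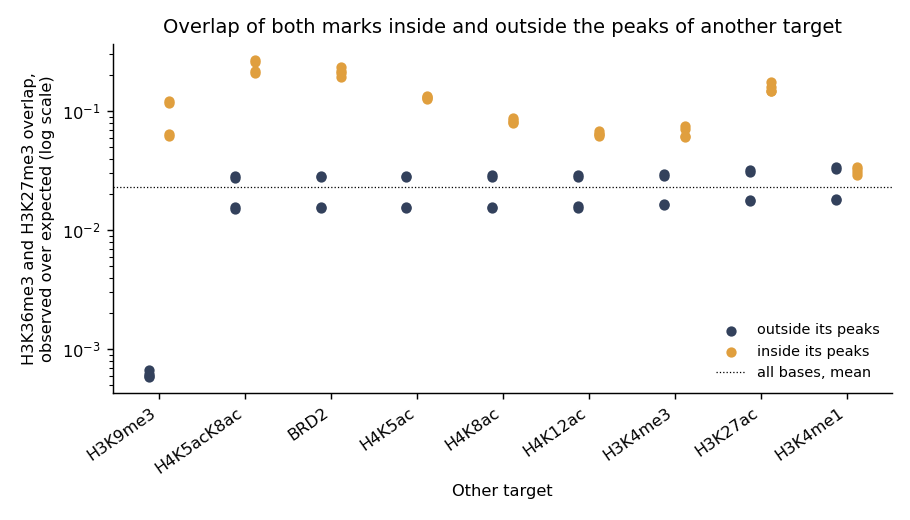
Overlap of H3K36me3 with H3K27me3, observed over expected on a log axis, inside and outside the peaks of each of the 9 other targets, with 1 point per pair of lists (4 per column) and the mean of all bases as a dotted line. Outside H3K9me3 peaks the 4 points lie between 0.000584 and 0.000671, and outside the peaks of the other 8 targets they lie near the dotted line.

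Chromosome 19 stood apart in the overlap. It is known for clusters of zinc finger genes whose bodies can carry H3K36me3 and H3K9me3 together. It held 60 of the 181 regions (33.1%) and 17.3 kb of their 64.0 kb, all of them with H3K9me3 in both lists. Its overlap ratio was 0.197 (0.107 to 0.289 over the 4 pairs of lists), while the other 22 chromosomes ranged from 0.00523 on chromosome 14 to 0.0364 on chromosome 6. Inside H3K9me3 peaks the chromosome 19 ratio was 0.279 (0.155 to 0.405 over the 4 pairs of lists) and outside them 0.00138 (0 to 0.00341). Without chromosome 19 the ratio of the whole genome was 0.0158. The next in number of regions was chromosome 7 with 23.

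The chromosomes differed several-fold in each mark, and not in parallel. H3K36me3 cover of the callable bases ran from 3.32% on chromosome X to 18.4% on chromosome 19, and H3K27me3 cover from 1.65% on chromosome 22 to 9.84% on chromosome 20. Chromosome cover by H3K36me3 followed the number of protein-coding genes per callable Mb, with a rank correlation of 0.895, and that by H3K27me3 did not, with −0.087. The rank correlation between the marks was 0.145. These are descriptions over the same 23 chromosomes and libraries, with gene numbers counted in a RefSeq table of assembly GRCh38.p14.

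The ratio of H3K27me3 to H3K36me3 cover, each relative to its genome-wide cover, was above 1 in all 4 pairs of lists on 12 chromosomes, under 1 on 9 and on both sides on chromosomes 6 and 10. It was highest on chromosome 18 at 1.79, where H3K36me3 covered 5.12% and 4.96% and H3K27me3 5.53% and 6.72% in replicates 1 and 2. Chromosome 8 followed at 1.70 and chromosome 5 at 1.56. The order of these 3 was not stable: among strong peaks, with a −log10 q from 5 upwards, chromosome 8 had 1.80, chromosome 5 had 1.72 and chromosome 18 had 1.60. At that strength 20 of the 23 chromosomes kept their side of 1. Chromosome 8 carried 244 H3K27me3 domains and 237 H3K36me3 domains, against 3278 and 6821 in the genome.

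At the other end, chromosome 22 had a ratio of 0.189, with H3K36me3 cover of 13.2% and 12.5% and H3K27me3 cover of 1.497% and 1.80%. It held 162 H3K36me3 domains and 4 H3K27me3 domains. Chromosome 19 had 0.331 and chromosome 17 had 0.411. These 3 had more H3K36me3 cover than any other chromosome. Chromosome 20 was rich in both marks, with 10.9% H3K36me3 and 9.84% H3K27me3 on average. Its overlap ratio was nevertheless 0.0113, and its neighbouring domains switched mark most densely of all chromosomes, 105.2 times per 100 Mb against 17.4 on chromosome 22. The share of its neighbouring pairs that switched was 16.0%.

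**Figure D5:**
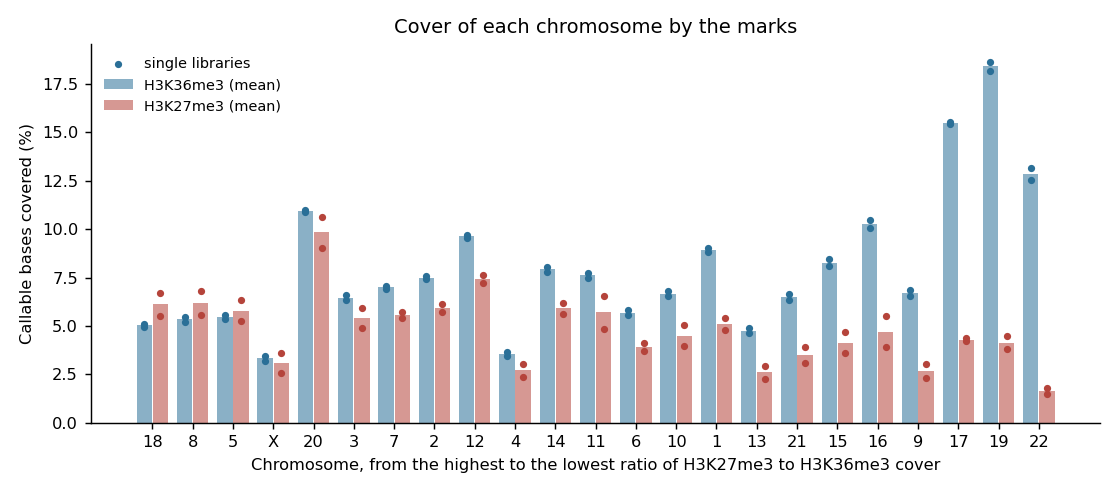
Share of callable bases covered (%) by H3K36me3 and H3K27me3 on each of 23 chromosomes, ordered from the highest to the lowest ratio of H3K27me3 to H3K36me3 cover, with bars for the mean of 2 libraries and points for each library. Chromosomes 17, 19 and 22 have the highest H3K36me3 cover, chromosome 22 has the lowest H3K27me3 cover, and chromosome 20 is high in both.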

How the data were processed

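ChIP-seq peaks of 4 libraries of NCI-H23 cells were compared, with the other 18 lists as context. Per the submitters' processing notes, BWA, MACS2 and hg19 were used. Versions, settings and the control are not given in the sources used here. Peaks were called per library, as far as the deposited lists show. In the deposited lists each peak has a fold enrichment, a ratio to the caller's background, and a −log10 p and −log10 q. The deposited lists give no read numbers, so depth is unknown.

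Coordinates are 1-based. Peaks on chromosome Y were left out. Overlap needed 1 bp. The expected overlap is the exact mean over all circular displacements within the callable bins of a chromosome, laid end to end. Values were computed for 4 pairs of lists. Python 3.11.15, numpy 2.4.6, scipy 1.17.1, pandas 2.3.3 and matplotlib 3.10.9 were used. The interval functions were tested on simulated data and gave the directly counted values on 20 of 20 circles. Named regions were the 5 longest domains of each mark, the 5 longest regions of both marks, the closest pairs of domains of at least 50 kb and the 3 highest and 3 lowest chromosome ratios; the overlapping domain pair, chromosome 20 and the split by H3K9me3 were singled out after their values were seen. The marks and measures were chosen with earlier results of these data known. Alternatives changed peak strength, callable length, overlap rule, bin rule, gap, domain length and library.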

Additional observations from a re-analysis of the deposited data

How the results depend on the processing

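The overlap ratio stayed under 1 in every alternative. It was 0.0232 as reported, 0.0115 for peaks with a −log10 q of at least 5, 0.0128 for the 10000 strongest peaks of each list, 0.0135 for bases called in both replicates and 0.000616 outside H3K9me3 peaks (0.00114 and 0.000778 with list 1 or 2 of H3K9me3 alone), alternatives chosen after seeing the data. Leaving out a library gave 0.0169 to 0.0295. The share of H3K36me3 peaks meeting H3K27me3, 0.300%, was 0.0718% when at least 50% of the peak had to be covered, 0.154% for summits, 0.0577% at a −log10 q of at least 5 and 0.04% among the 10000 strongest. For H3K27me3 peaks, 0.249%, the last 2 settings gave 0.106% and 0.04%. The values for the 10000 strongest rest on only 3 or 5 overlapping peaks per pair of lists. The 10 kb bin ratio of 0.0743 was 0.0271 with at least 10% of the bin covered, 0.0406 at the higher q and 0.0462 for bases in both replicates. The 100 kb ratio of 0.663 was 0.148, 0.527 and 0.604 under these settings and 0.695 over all bins of the chromosome span. The 1 Mb ratio of 1.00 turned to 0.408 with at least 10% covered and was 1.04, 1.01 and 1.04 under the other 3 settings.

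The distance from H3K36me3 edges changed direction too. Its median over the expected median, 0.987, was 0.808 with gaps of at most 1 kb, 1.40 with gaps of at most 10 kb and 1.16 with domains from 5 kb, and leaving out a library gave 0.995 to 1.27. The number of H3K27me3 domains, 3278 as reported, was 465, 7735 and 9333 in those 3 settings. For H3K27me3 edges, 1.49, the ratio was 1.15, 1.70 and 1.64, and 1.34 with domains from 20 kb, with 1.53 to 1.61 when a library was left out. The share of neighbours that switched mark, 13.3%, was 6.88% with gaps of at most 1 kb, 18.9% with gaps of at most 10 kb and 11.3% with domains from 20 kb, each under its expected share, and 12.4% to 14.8% without a library. The chromosomes rich in H3K27me3 and in H3K36me3, 12 and 9 as reported, were 10 and 12 at a −log10 q of at least 5, where 20 of 23 kept their side, and 13 and 10 without either H3K27me3 replicate, where 21 of 23 (without replicate 1) and 23 of 23 (without replicate 2) did, and the pair moved to place 2 among the 10000 strongest peaks.

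Replicate numbers are shared by the labels, but nothing ties same-numbered libraries to each other, and their deviations over 28117 bins of 100 kb had a correlation of −0.0077. With the replicate block, taking same-numbered lists only, the overlap ratio was 0.0233, and the edge distance ratios were 1.19 (H3K36me3) and 1.67 (H3K27me3), both from the domains of single libraries. Of 165 alternative values over 20 results, 102 stayed within the spread between libraries or, for counts, within 1.5 times the reported number. A further 57 moved beyond these limits and 6 changed direction. Some of the 102 could not have come out otherwise. For overlap in bases, peaks and bins and for chromosome ratios, the spread came from the same libraries. Leaving one of them out always moves such a mean by less than that spread. Callable length cancels in the ratio of chromosome cover, so changing it returned identical values. The 102 therefore does not measure stability. Read depth is unknown and limits what a missing peak means.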
